A study of Rattus norvegicus with 10 samples.

Results

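The nuclei described here were the interneuron nuclei of the rat dentate gyrus that carried little or no RNA of somatostatin or of the Npas1, Adarb2 and Htr3a genes, a remainder in which parvalbumin interneurons are found. They were chosen by their counts of unique molecular identifiers (UMIs, each counted RNA molecule). A nucleus with at least 500 UMIs and at most 5% mitochondrial UMIs was a member if it held 4 or more UMIs of Gad1 and Gad2 together, 0 or 1 UMI of Sst, and 2 or fewer UMIs of Npas1, Adarb2 and Htr3a together. The gate found 864 members among 55401 nuclei kept. TBI replicate 1 gave 217 members of 12526 nuclei, TBI replicate 2 gave 256 of 14574, the sham rat gave 189 of 16936 and the naive rat gave 202 of 11365.

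The study asked how gene expression in the dentate gyrus on the injured side differed 3 weeks after a traumatic brain injury (TBI) delivered by lateral fluid percussion, in which a pressure pulse of saline strikes the intact dura. All animals were male Sprague Dawley rats. Single-nucleus RNA-seq (snRNA-seq) was run on 2 TBI rats, 1 sham rat that had surgery without the pulse and 1 naive rat that had no surgery, each rat giving 1 library, and the sham and naive rats together formed the control group. Bulk RNA-seq of the same region came from 3 sham and 3 TBI rats, and the ages of the animals were not in the labels.

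Interneurons of the dentate gyrus release GABA, which the Gad1 and Gad2 enzymes make from glutamate and the vesicular transporter Slc32a1 loads into synaptic vesicles. Parvalbumin basket cells fire at high rates, which depends on fast potassium channels such as Kcnc1 and Kcnc2, and they inhibit granule cells around the cell body. The receptor tyrosine kinase Erbb4, which binds neuregulins, is carried by many interneurons, the parvalbumin type among them, and other interneurons without somatostatin include neurogliaform cells, in which Reln and Lamp5 are known markers.

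The members were sequenced more deeply than the nuclei around them. Their median UMI counts were 3114 (TBI replicate 1), 2179.5 (TBI replicate 2), 2871 (sham) and 3809 (naive), against 2194, 1599, 1859 and 2579 for nuclei with 0 UMIs of both Gad genes. A gate on 4 UMIs favours deeper nuclei, and TBI replicate 2 was the shallowest library. Summed per rat, the members held 888545, 667949, 621865 and 1089728 UMIs in the same order. Between any pair of libraries 46 to 64 cell barcodes were shared, and 0 of the shared barcodes belonged to members in both. Levels are given below as CPM, the UMI count of a gene scaled to a common total over the summed nuclei, and values per rat follow the order TBI replicate 1, TBI replicate 2, sham, naive unless named.

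The gate genes describe how the members were picked and were not tested. Gad1 stood at 778 and 1240 CPM (TBI), 994 CPM (sham) and 777 CPM (naive). Gad2 stood at 571, 1105, 783 and 638 CPM in that order, and TBI replicate 2 was the highest for both. Both Gad genes were seen in 82.9%, 84.4%, 88.4% and 86.1% of the members, so that most did not rest on a single enzyme. At the lower edge, 272 members had exactly 4 Gad UMIs and an Erbb4 level of 1668 CPM, whereas the 445 nuclei just outside, with 3 Gad UMIs, had 1160 CPM. Slc17a7, the vesicular glutamate transporter of granule cells, was at 164 CPM in those 272 members and at 262 CPM in the nuclei just outside. Slc32a1 and Pvalb did not follow Erbb4 across this edge, at 13.9 and 9.93 CPM inside and 22.5 and 10.9 CPM outside. The 78 members with 1 Sst UMI had 1250 CPM of Erbb4 against 377 CPM in the 52 nuclei just outside with 2 Sst UMIs. The 61 members with 2 UMIs of Npas1, Adarb2 and Htr3a had 57.5 CPM of the cannabinoid receptor Cnr1 against 156 CPM in the 34 nuclei just outside with 3.

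By this gate, which favours deeper libraries, the members made up close to the same share of the nuclei in 3 of the 4 rats. TBI replicate 1 had a share of 1.73% (95% exact binomial interval 1.51 to 1.98) and TBI replicate 2 of 1.76% (1.55 to 1.98). The sham rat had 1.12% (0.963 to 1.29), and the naive rat had 1.78% (1.54 to 2.04). The sham rat was low and the naive rat lay with the TBI rats. The mean was 1.74% ± 0.0171 (SD, n = 2) after TBI and 1.45% ± 0.468 (SD, n = 2) in the controls, and the exact two-sided permutation test gave p = 1, where 2 rats against 2 cannot go below 0.33. The difference of 0.298 percentage points turned to -0.0329 without the sham rat and to -0.0658 with a gate of 6 Gad UMIs. It was 0.733 with a gate of 3 Gad UMIs, 0.572 with a minimum of 1000 UMIs a nucleus and 0.972 with every nucleus thinned to 1000 UMIs. The thinned gate (at least 2 Gad UMIs, 0 of Sst and at most 1 of Npas1, Adarb2 and Htr3a) gave shares of 1.95% and 3.12% for TBI, 1.57% for the sham rat and 1.55% for the naive rat. There the naive rat lay with the sham rat and both TBI rats above both controls, but this setting changed depth and gate at once. The direction turned only with the gate of 6 Gad UMIs and without the sham rat, while the size of the difference varied with the setting. These intervals cover counting error only, and nuclei lost from the tissue and nuclei holding less Gad RNA cannot be told apart by such a gate.

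Parvalbumin transcripts were scarce. Pvalb, the calcium-binding protein that names the type, had 38 UMIs in 36 of the 864 members (4.17%). A Pvalb UMI was found in 3.69% and 3.13% of the TBI rats' members, 2.65% of the sham rat's and 7.43% of the naive rat's. In the nuclei with 0 Gad UMIs the shares were 0.448%, 0.228%, 0.341% and 0.264%, so the members lay above that background in every rat. The summed level was 9.0 and 12 CPM (TBI), 9.65 CPM (sham) and 14.7 CPM (naive). The naive rat, which was the deepest library, was the highest by level and by share. The TBI rats lay between the controls by share, whereas by level TBI replicate 1 was below both controls. The share was 3.41% ± 0.397 (SD, n = 2) after TBI and 5.04% ± 3.38 (SD, n = 2) in the controls, with p = 1 by the exact two-sided permutation test. With every nucleus thinned to 1000 UMIs the shares became 0.930% and 1.18% for TBI and 0.495% for the naive rat, and 0 of 188 members of the sham rat, which allows a share of up to 1.60%. The thinned nuclei with 0 Gad UMIs stood at 0.222%, 0.106%, 0.174% and 0.0578%, and the thinned members' values rested on 2, 3, 0 and 1 nuclei. Only in TBI replicate 2 did the 95% exact interval (0.244 to 3.41%) lie above its background, so in the other 3 rats the members could no longer be set above theirs. Thinning also reversed the difference between the groups, from -1.63 to 0.808 percentage points, so these counts gave no direction for Pvalb.

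Slc32a1, which fills vesicles with GABA, was also sparse. Its level was 27.0 and 22.5 CPM (TBI), 19.3 CPM (sham) and 34.9 CPM (naive), and 10.6%, 5.47%, 6.35% and 16.8% of the members held a UMI. The nuclei with 0 Gad UMIs held one in 0.531%, 0.152%, 0.452% and 0.0951%. By level the TBI rats lay between the controls, whereas by share TBI replicate 2 was below both, and the exact two-sided permutation test on the share gave p = 0.667 (n = 2 a group). Erbb4 was seen in 89.9%, 91.8%, 87.3% and 92.6% of the members, at 1448, 2584, 2235 and 2119 CPM, against 20.7%, 9.56%, 20.5% and 8.70% of nuclei with 0 Gad UMIs. Of the Erbb4 levels, TBI replicate 1 was the lowest and TBI replicate 2 the highest, so the TBI rats enclosed the controls (p = 1 for the share by the same exact test, n = 2). Reln, the extracellular glycoprotein of neurogliaform and some other interneurons, stood at 842, 1461, 934 and 700 CPM with a UMI in 49.3%, 60.5%, 55.6% and 46.0% of the members (p = 0.667 for the share, exact permutation test, n = 2 a group).

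**Figure D1:**
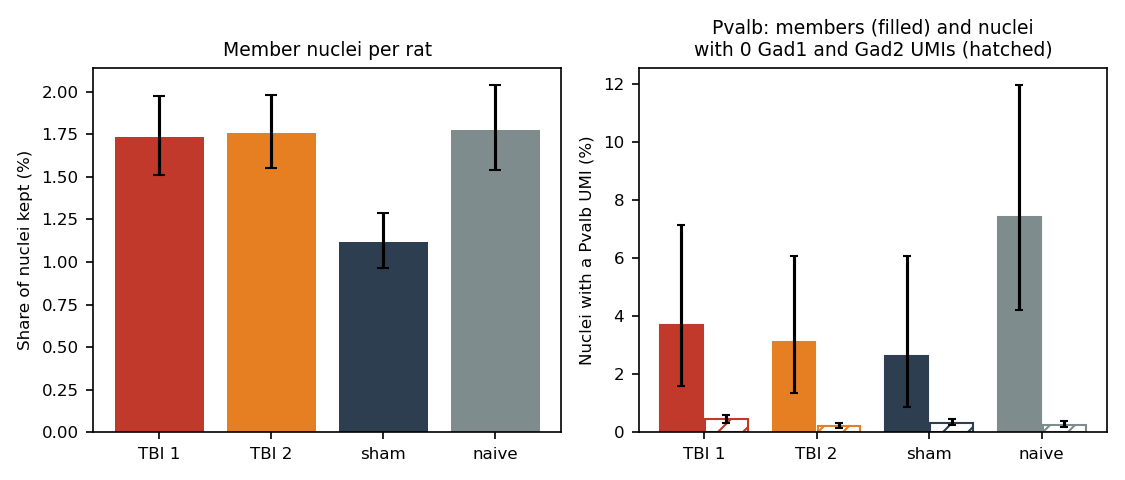
Left: members as a percentage of the nuclei kept in each of the 4 rats, with bars for the 95% exact binomial interval; right: percentage of members with a Pvalb UMI beside the same share in nuclei with 0 Gad UMIs (hatched). The sham rat is low on the left, and on the right, before thinning, the members lie above the hatched background in every rat and the naive rat is highest.

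The members were not of 1 kind. Clustering them on variable genes gave 7 clusters, which are described by their leading genes and were not tested against each other, since the same counts made them. Cluster 1 held 226 nuclei (26.2%) and was led by the synaptic adhesion molecule Il1rapl2 at 1580 CPM against 48.9 CPM in the other members, with Man1a1, Lypd6b, Ets1, Elfn1 and Satb1. It held 28 of the 36 nuclei with a Pvalb UMI (77.8%). Kcnc2 stood at 2299 CPM and Kcnc1 at 957 CPM in it. An Sst UMI was present in 25.7% of its nuclei, the highest share of the 7 clusters. Satb1 and Elfn1 are known from somatostatin as well as parvalbumin interneurons.

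Clusters 2 and 3 shared Lamp5 and the fibrillar collagen gene Col5a2 among their leading genes. Cluster 2 held 189 nuclei (21.9%) and was led by the secreted Wnt regulator Sfrp1, Frem1, Tmtc2 and the neurotrophin Ntf3. Lamp5 stood at 219 CPM in cluster 2 and at 225 CPM in cluster 3, against 54.6 and 59.9 CPM in the members outside each. Cluster 3 held 168 nuclei (19.4%), with the phosphodiesterases Pde1c and Pde11a, the kainate receptor Grik1 and Reln (2264 CPM against 765 CPM) among its leading genes. The Pvalb UMIs were 1 in cluster 2 and 0 in cluster 3, and 0 of 168 nuclei allows a share of up to 1.79%. Erbb4 was high in both, at 3863 and 3215 CPM.

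Cluster 4 held 136 nuclei (15.7%), led by St18, Il16, Chst9 and Smad3, and 50.7% of its nuclei held a UMI of Slc17a7, against 10.9% to 17.6% in clusters 1, 2, 3, 5 and 6. Cluster 5 held 55 nuclei (6.37%) and was led by Reln at 7697 CPM against 664 CPM in the other members, with Pld5, the relaxin receptor Rxfp1, Egfr and Kit. It also held an Adarb2 UMI in 74.5% of its nuclei, below the gate's limit, and 0 of its 55 nuclei held Lhx6, the transcription factor of interneurons from the medial ganglionic eminence, which allows a share of up to 5.45%. Cluster 6 held 51 nuclei (5.90%), led by Abi3bp, Sntb1, Vwc2l and the netrin receptor Unc5b, with a Kcnc1 UMI and a Kcnc2 UMI in 100% of its nuclei and Pvalb in 6 of them. Erbb4 stood at 3909 CPM in cluster 6 and Reln was low there, at 23.6, 168, 57.1 and 28.1 CPM.

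Cluster 7 went against the label. Its 39 nuclei (4.51%) had a median of 14848 UMIs and were led by astrocyte genes: the lipoprotein Apoe (3540 CPM against 79.6 CPM), the filament protein Gfap, Aldoc, S100b and the water channel Aqp4. Gad1 stood at 264 CPM in it, the lowest of the 7 clusters, and 82.1% of its nuclei held an Slc17a7 UMI. No doublet caller was run, and whether these droplets held more than 1 nucleus was not tested. The cluster had 16, 5, 6 and 12 nuclei by rat, which held 23.9%, 7.90%, 10.4% and 25.3% of all member UMIs. The 9 astrocyte markers summed to 1193, 732, 590 and 2836 CPM over all members and to 552, 198, 418 and 177 CPM without the cluster. Of the other non-neuronal lists, the 10 microglia markers summed to 47.3, 16.5, 11.3 and 48.6 CPM and the 9 oligodendrocyte markers to 365, 232, 238 and 341 CPM. For several lists the comparison of TBI with control below is therefore given without cluster 7 as well.

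The mixture of clusters varied between rats within a group. Cluster 2 took 37.6% of the naive rat's members against 14.3% of the sham rat's, and 15.7% and 20.3% after TBI. Cluster 3 took 5.94% of the naive rat's against 20.1% of the sham rat's, and 25.3% and 24.6% after TBI. Cluster 1 took 28.6%, 21.1%, 32.8% and 23.8%. The naive rat stood apart in clusters 2 and 3, whose sizes were not tested.

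**Figure D2:**
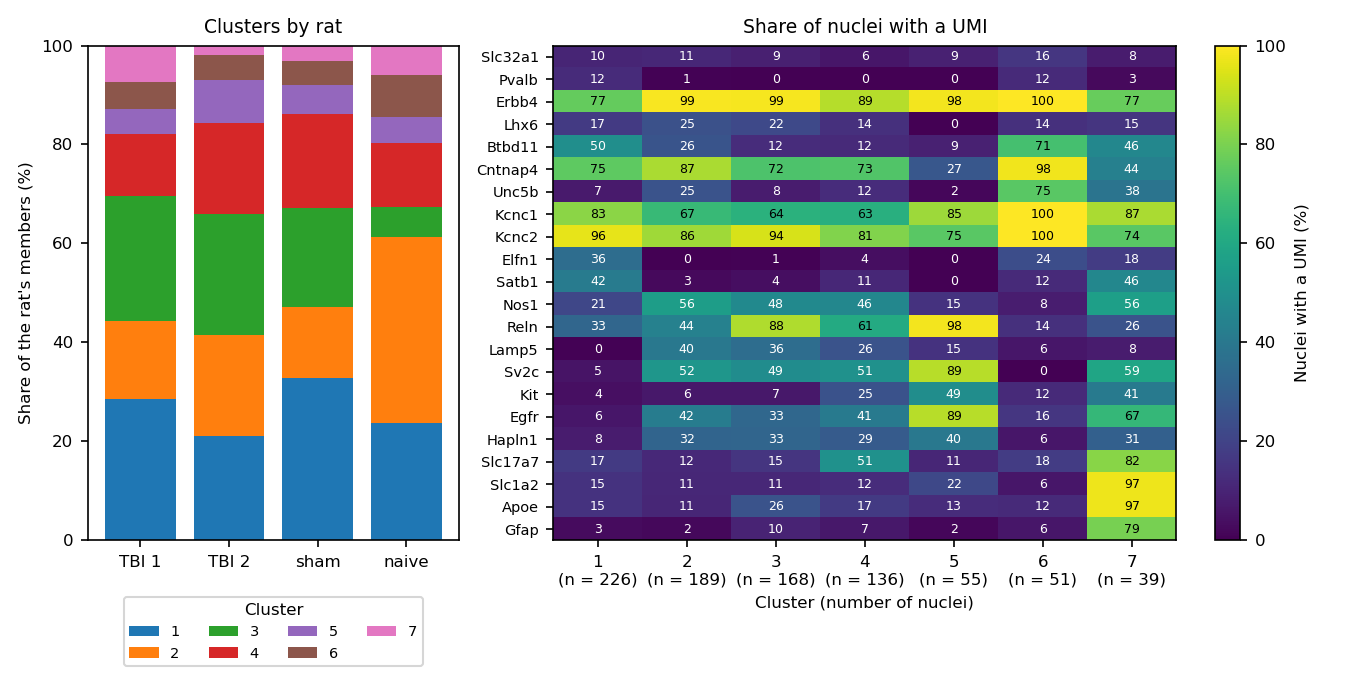
Left: percentage of each rat's members in each of the 7 clusters, stacked; right: percentage of the nuclei of each cluster with a UMI of each of 22 genes, by colour. The naive rat has more of cluster 2 and less of cluster 3, Pvalb is seen mainly in clusters 1 and 6, and the astrocyte genes mark cluster 7.

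The 36 members with a Pvalb UMI can be set beside the 828 without, as a description, since deeper nuclei yield more of every gene (median 4393 against 2770.5 UMIs). Kcnc2 was seen in 36 of the 36, Kcnc1 and Erbb4 in 34 each and Cntnap4, a neurexin-related protein of interneuron synapses, in 33. Btbd11 was seen in 75.0% against 27.8% of the other members, and Il1rapl2 in 52.8% against 21.4%. Although those nuclei were deeper, Sv2c, a synaptic vesicle protein, was seen in 5.56% against 40.1%, and Lamp5 in 0 of 36, which allows a share of up to 8.33%, against 22.5%. Reln was seen in 38.9% against 53.9%.

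To see what else separated the members from the interneurons that the gate turned away, UMI sums per rat were compared with the 162 Sst-gated nuclei (at least 4 Gad UMIs and 2 or more Sst UMIs) and with the 355 Npas1/Adarb2/Htr3a-gated nuclei (3 or more UMIs of those genes, and at most 1 of Sst). The model was edgeR's quasi-likelihood test with the rat as a block and Benjamini-Hochberg adjustment (FDR), and the 6 gate genes were left out. In these 2 comparisons, genes are said to be higher or lower where they passed an FDR of 0.05. Genes that travel with a gate gene in the same cells differ in part through the choice of nuclei. The Sst-gated nuclei were few, with 40, 25, 18 and 79 by rat.

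Astrocyte RNA was not limited to the members. Nuclei with 10 or more UMIs of the 9 astrocyte markers numbered 16, 5, 7 and 15 among the members by rat, 38 of these 43 being in cluster 7. Among the Npas1/Adarb2/Htr3a-gated nuclei they numbered 10, 0, 3 and 19 and held 51.7%, 0%, 6.55% and 52.9% of the UMIs. Among the Sst-gated nuclei they numbered 6, 0, 1 and 0. Such astrocyte-rich nuclei were therefore left out of both sides as an alternative, which gave 573 calls against the Sst-gated and 601 against the Npas1/Adarb2/Htr3a-gated nuclei. These held 91.3% and 88.8% of the genes called with all nuclei, in the same direction.

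Against the Sst-gated nuclei, the members carried far more Erbb4 and GABA-A receptor RNA and less of a set of glutamate receptor genes. Of 7003 genes, 276 were higher (3.94% of those tested) and 162 lower (2.31%) in the members at an FDR below 0.05. The total of 438 fell to 223 without the naive rat and to 240 with DESeq2. Erbb4 was at 1448, 2584, 2235 and 2119 CPM in the members against 248, 463, 434 and 223 CPM in the Sst-gated nuclei of the same rats. Every member value was above every Sst-gated value, and the Log2FC was 2.74 ± 0.17 (SE; edgeR FDR 1.72e-11). Gabrg3, a gamma subunit of the GABA-A receptor, was at 2531, 3861, 3956 and 2619 CPM against 286, 800, 667 and 305 CPM, a Log2FC of 2.84 ± 0.16 (edgeR FDR 5.85e-12). It headed a family: of the 11 GABA-A subunits tested 9 had a positive and 2 a negative Log2FC, and 7 were called higher and 0 called lower, with a median Log2FC of 1.08 where that of all genes tested was 0.02. Gabrb2 reached a Log2FC of 1.82 ± 0.18 and Gabrd, the subunit of extrasynaptic receptors, 2.51 ± 0.51. Gabrb1 was also higher (1.07 ± 0.22).

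The fast-spiking channels were divided in this comparison. Of 16 tested, Kcnc1 was higher, at 591, 735, 601 and 590 CPM against 352, 576, 417 and 425 CPM (Log2FC 0.57 ± 0.16, edgeR FDR 0.0213). Kcnc2 was lower, at 1177, 1636, 1650 and 1333 CPM against 1357, 3497, 2452 and 3290 CPM (Log2FC -0.76 ± 0.15, edgeR FDR 0.00176). The populations did not overlap for Kcnc1 and overlapped for Kcnc2, where the members were nevertheless lower within each of the 4 rats. No other channel of the list was called with all nuclei, and without the astrocyte-rich nuclei the sodium channel Scn1a was called higher as well (Log2FC 0.43 ± 0.13, against 0.28 ± 0.15 with them).

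Of 16 genes tested from a list of parvalbumin-type and medial ganglionic eminence identity genes, 7 were higher (Erbb4, Cntnap4, Unc5b, Zfp804a, Ank1, Btbd11 and Tafa2) and Satb1 was lower, while Lhx6 was not called. Cntnap4 was at 787, 931, 1074 and 829 CPM against 261, 632, 450 and 412 CPM (Log2FC 1.15 ± 0.17). Of 6 genes tested from the list of Npas1, Adarb2 and Htr3a type markers, Lamp5, Sv2c and Id2 were higher and 0 lower (median 1.26). Lamp5 had 258 UMIs in the members against 2 in the Sst-gated nuclei, a ratio of 29.7 with a counting interval of 8.15 to 247, and Col5a2 had 653 against 1, a ratio of 151 (26.9 to 5957).

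Among the glutamate receptors, 7 of 22 were lower and 3 higher. Gria1, an AMPA receptor subunit, was at 2827, 3222, 3350 and 2243 CPM against 4457, 5786, 5721 and 5283 CPM (Log2FC -0.84 ± 0.13), and Gria4, Gria3, Grik3 and Grm8 were among the others that were lower. The populations did not overlap for Gria1. The 3 higher were Grik1, Grm3 and the NMDA subunit Grin2c, of which Grin2c fell below the filter on low counts without the astrocyte-rich nuclei. Elfn1, a postsynaptic protein that shapes release onto somatostatin interneurons, was at 66.4, 37.4, 90.1 and 52.3 CPM against 286, 407, 434 and 357 CPM (Log2FC -2.55 ± 0.21). Elfn1 was the 1 lower gene among 5 tested from the list of Sst-type markers, of which Nos1 and Reln were higher in the members (median of the list 0.91). Reln was at 842, 1461, 934 and 700 CPM in the members against 199, 534, 851 and 441 CPM in the Sst-gated nuclei (Log2FC 1.10 ± 0.21), and although the populations overlapped across rats, the members were higher within each of the 4 rats. Lypd6b (Log2FC -2.83 ± 0.20), Prkcq (-2.76 ± 0.25) and Man1a1 (-2.36 ± 0.23) were lower as Elfn1 was. Within the members Elfn1, Lypd6b and Man1a1 were leading genes of cluster 1, at 176, 172 and 239 CPM there against 16.4, 8.85 and 10.5 CPM in the other members. The rest of the 10 leading genes of cluster 1, among them Il1rapl2, Ets1 and Satb1, were lower too, except Cacna2d2, which was not called. Cluster 1 holds most Pvalb nuclei, but a Pvalb UMI was seen in 12.4% of its nuclei and an Sst UMI in 25.7%.

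Of the neuregulin and ErbB list, Egfr, Erbb4, Magi1 and Nrg2 were higher and Nrg1 lower among 11 tested. Egfr was at 185, 253, 289 and 222 CPM in the members against 24.8, 14.0, 50.0 and 34.1 CPM (Log2FC 2.88 ± 0.26). Of the perineuronal net list, the link protein Hapln1 (Log2FC 2.58 ± 0.39) and the proteoglycan Vcan (1.56 ± 0.29) were higher and tenascin-R, Tnr, lower (-0.72 ± 0.15) among 8 tested (median 0.40). Without the astrocyte-rich nuclei the receptor phosphatase Ptprz1 was lower too (-0.66 ± 0.18, against -0.08 ± 0.19 with them), and the median of the list was 0.29. In the GABA synthesis, packaging and uptake list, 0 of 8 were called. Of 7 astrocyte markers tested 6 were higher, with a median Log2FC of 2.02. Without the astrocyte-rich nuclei this became 1 of 3, Slc1a3, and Apoe went from 2.59 to 0.81 and lost the call.

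Against the Npas1/Adarb2/Htr3a-gated nuclei, the members carried more Kcnc1, Kcnc2, Kcns3 and the AMPA receptor subunits Gria1, Gria3 and Gria4, and less Cnr1, Reln and Cck. Of 7830 genes, 204 were higher (2.61% of those tested) and 208 lower (2.66%). The total of 412 fell to 184 without the naive rat, to 188 with DESeq2 and to 81 without the block by rat. Of the 16 fast-spiking channel genes tested, 6 were higher (among them Kcnc1, Kcnc2, Kcns3, Scn1a and Cacna1a), the N-type calcium channel Cacna1b was lower and 9 were not called (median Log2FC 0.13). Kcns3, a modifier subunit of potassium channels, was at 84.4, 180, 153 and 120 CPM against 9.44, 38.8, 42.8 and 27.5 CPM (Log2FC 2.20 ± 0.20, edgeR FDR 1.80e-06). Kcnc2 here differed in the direction opposite to that against the Sst-gated nuclei, with 508, 1106, 1079 and 755 CPM in the gated nuclei (Log2FC 0.78 ± 0.12). For Kcnc2 the members thus lay between their neighbours. In the gated nuclei Kcns3 and Kcnc2 were lowest in TBI replicate 1 and the naive rat, where astrocyte-rich nuclei held 51.7% and 52.9% of the UMIs.

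The identity genes Lhx6 (Log2FC 3.49 ± 0.39), Nxph1 (3.06 ± 0.45), Unc5b (2.37 ± 0.27), Zfp804a (2.06 ± 0.28), Cntnap4, Erbb4, Ank1 and Ppargc1a were higher, 8 of 16 tested. Lhx6 was at 50.6, 53.9, 74.0 and 46.8 CPM in the members against 5.67, 3.88, 13.2 and 1.02 CPM. Erbb4 was at 550, 1650, 1889 and 695 CPM in the gated nuclei, and although those values overlapped the members' across rats, the members were higher within each of the 4 rats (Log2FC 0.95 ± 0.17, edgeR FDR 0.00161). The gated values were lowest in TBI replicate 1 and the naive rat, where astrocyte-rich nuclei held 51.7% and 52.9% of the gated UMIs. In TBI replicate 2 and the sham rat, where such nuclei held 0% and 6.55%, the members were at 2584 and 2235 CPM. Col19a1 and the receptor Kit were lower, as were Reln (Log2FC -1.30 ± 0.15) and the vesicular glutamate transporter Slc17a8 (-1.91 ± 0.28).

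Cnr1, the cannabinoid receptor that marks Cck basket cells, was at 54.0, 34.4, 38.6 and 11 CPM in the members and at 553, 1665, 701 and 810 CPM in the gated nuclei (Log2FC -4.72 ± 0.29, edgeR FDR 2.26e-08). The neuropeptide Cck (Log2FC -2.92 ± 0.41) and the transcription factor Nr2f2 (-0.87 ± 0.23) were lower in the members as well. These were the 3 lower genes among 7 tested from the list of Npas1, Adarb2 and Htr3a type interneuron markers (median Log2FC -0.36). Without the astrocyte-rich nuclei the transcription factor Prox1 was lower and Id2 higher as well, and the median was -0.58. The other 2 called from that list with all nuclei were higher in the members, Lamp5 (2.72 ± 0.35) and Sv2c (0.61 ± 0.17, edgeR FDR 0.0478). Syt6 (-3.79 ± 0.22), the muscarinic receptor Chrm5 (-3.72 ± 0.29) and Rgs12 (-3.30 ± 0.24) belonged to the most clearly lower genes. The highest-ranked of the higher genes was the receptor phosphatase Ptprt, at 1454, 1874, 2034 and 1603 CPM against 236, 462, 447 and 294 CPM (Log2FC 2.30 ± 0.12). Nos1, the neuronal nitric oxide synthase, was at 155, 228, 187 and 135 CPM against 34.0, 58.2, 46.1 and 25.5 CPM (Log2FC 2.15 ± 0.16), and it was higher than in the Sst-gated nuclei as well (1.77 ± 0.27).

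AMPA subunits Gria1 (Log2FC 1.30 ± 0.11), Gria3 and Gria4 and the kainate subunits Grik1 and Grik3 were higher, 5 of 23 glutamate receptor genes, and Grid1, Grik4 and Grm8 were lower. Of the 11 GABA-A subunits 4 were higher, among them Gabrb2, Gabrd and Gabrg3 (1.43 ± 0.18), and Gabrb1 was lower. Gabrb2, Gabrd and Gabrg3 were called higher in both comparisons, which share the members' values. The neurexin Nrxn3 and the scaffold Gphn were lower (-0.92 ± 0.15 and -0.38 ± 0.10). Of 8 astrocyte markers 2 were lower, Aqp4 and Slc1a2 (median -0.82). Without the astrocyte-rich nuclei 0 of the 4 that could be tested were lower and Slc1a3 was higher (median 0.40), so the direction of this list turned. In the same alternative the identity list had 10 higher and 2 lower genes, the fast-spiking channels 6 and 2, the GABA-A subunits 5 and 1 and the glutamate receptors 7 and 7. The AMPA subunit Gria2, not called with all nuclei, was among those lower.

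Egfr and Vcan differed in the direction opposite to that against the Sst-gated nuclei, whereas Erbb4 and Hapln1 were higher in both comparisons. Egfr was at 229, 497, 533 and 225 CPM in the Npas1/Adarb2/Htr3a-gated nuclei, and the members were lower within each of the 4 rats (Log2FC -0.55 ± 0.15, edgeR FDR 0.0348), and lower without the astrocyte-rich nuclei too (-0.64 ± 0.13). Of the 12 neuregulin and ErbB genes tested Erbb4 was the 1 higher and Egfr the 1 lower (median -0.05). Of the 8 perineuronal net genes Hapln1 was higher (0.64 ± 0.17) and Vcan (-1.09 ± 0.13) and Ptprz1 (-0.64 ± 0.15) were lower, with a median of -0.24. Without the astrocyte-rich nuclei 3 of these 8 were higher and the same 2 lower, and the median turned to 0.21. Vcan was at 168, 388, 161 and 207 CPM in the gated nuclei against 88.9, 150, 74.0 and 110 CPM in the members, and the populations did not overlap.

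**Figure D3:**
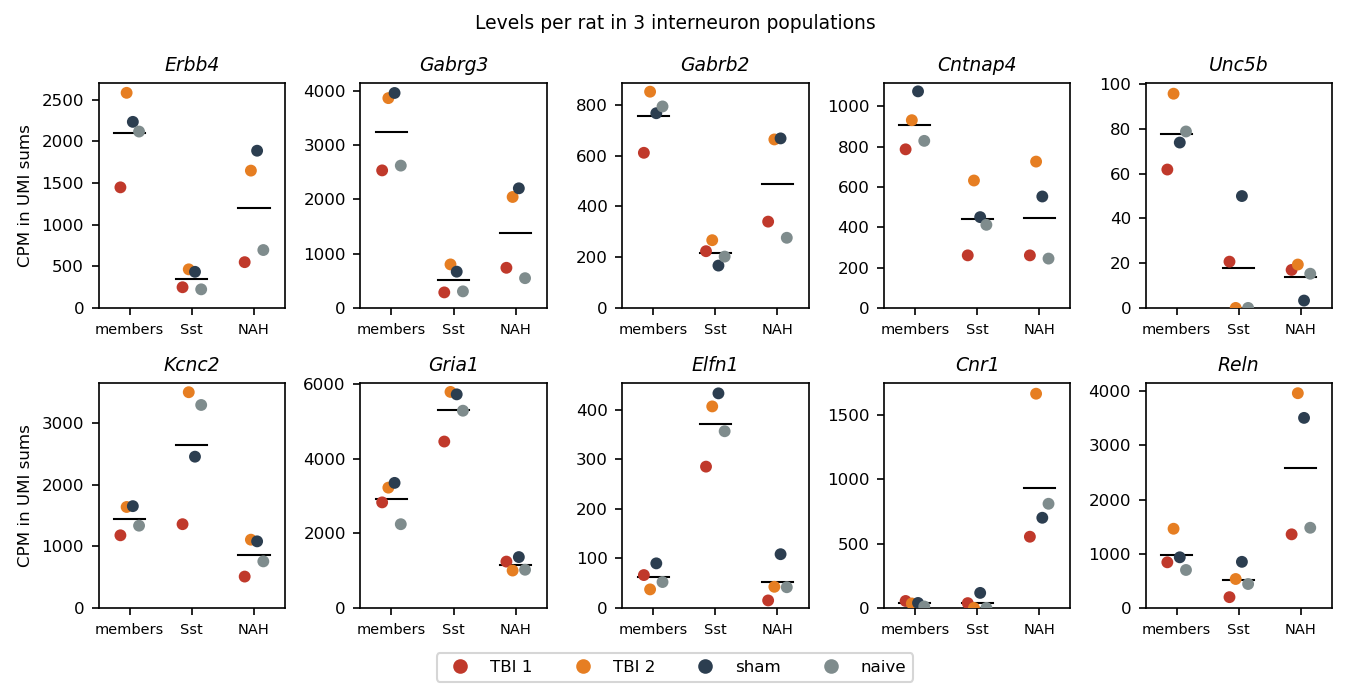
Level in CPM of 10 genes in each of the 4 rats (points, with a bar at the mean) in the members, the Sst-gated nuclei and the Npas1/Adarb2/Htr3a-gated nuclei (NAH). Erbb4, Gabrg3 and Gabrb2 are highest in the members, Elfn1 in the Sst-gated nuclei and Cnr1 and Reln in the Npas1/Adarb2/Htr3a-gated nuclei, while Kcnc2 and Gria1 put the members between their neighbours.

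**Figure D4:**
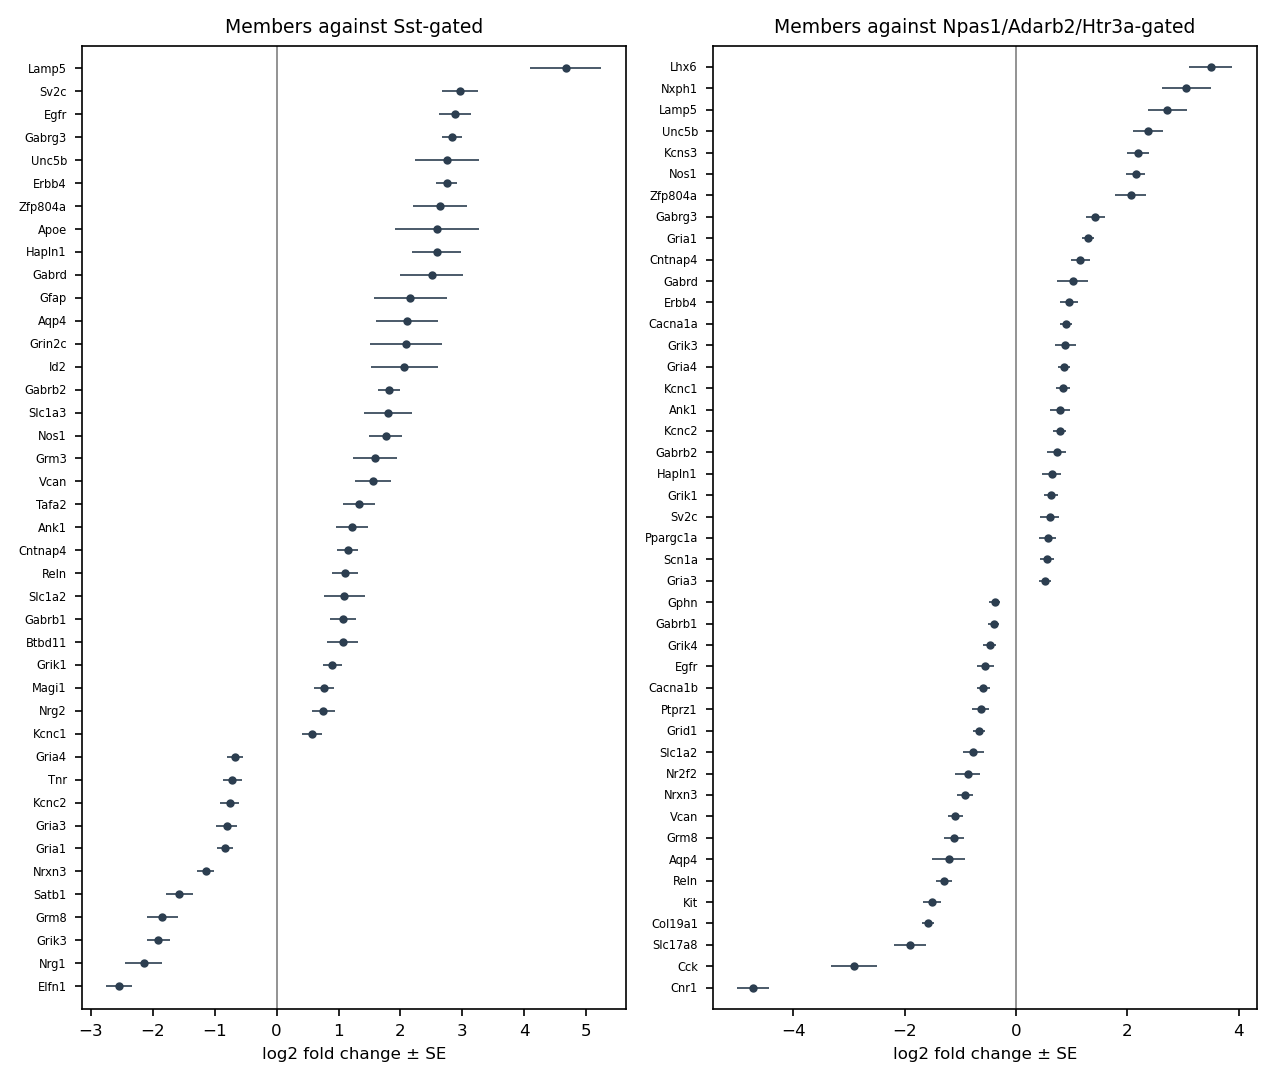
Log2FC ± SE (edgeR) of list genes named in the text that were called against the Sst-gated nuclei (left) and against the Npas1/Adarb2/Htr3a-gated nuclei (right). Values above 0 are higher in the members; Gria1, Gria4 and Kcnc2 are among those with opposite signs, and Gabrg3 and Erbb4 are higher in both.

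For the main question of the study, the members of the TBI rats were compared with those of the sham and naive rats. No gene was called: 0 of 8522 (0% of those tested) passed an FDR of 0.05 in edgeR's quasi-likelihood test, where the smallest FDR reached was 0.999 and an unadjusted p below 0.05 was found for 195. DESeq2 also called 0, with 40 below 0.05. Calls appeared with no filter on low counts (23) and when TBI replicate 1 (54) or TBI replicate 2 (27) was left out, which leaves 1 TBI rat. The common biological coefficient of variation between rats, as edgeR estimated it from the members' sums, was 0.218. The libraries did not pair off by injury: the correlation of log CPM across genes was 0.883 between the TBI rats and 0.933 between TBI replicate 1 and the naive rat.

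With this background, genes were ranked by p only where both TBI rats lay on the same side of both controls. Those with the smallest p among the genes higher after TBI were Agap2, Nxf1, Efnb3, Smad3 and B3gat1. Agap2, a GTPase-activating protein that acts on PI3-kinase signalling, was at 111 and 94.3 CPM after TBI and 45.0 and 41.3 CPM in the sham and naive rats (Log2FC 1.20 ± 0.27). Efnb3, a membrane-bound ephrin ligand, was at 73.2 and 50.9 CPM against 22.5 and 22.9 CPM (1.39 ± 0.36). Smad3, the TGF-beta signal transducer, was at 132 and 150 CPM against 77.2 and 63.3 CPM (0.96 ± 0.25), and it was also a leading gene of cluster 4. On the lower side stood Gabrg1, Acsl3, Slc1a2, Jhy and Ddrgk1. Gabrg1, a GABA-A gamma subunit, was at 59.6 and 52.4 CPM against 91.7 and 127 CPM (Log2FC -1.03 ± 0.28), and Slc1a2, the astrocyte glutamate transporter, at 113 and 64.4 CPM against 129 and 226 CPM (-1.07 ± 0.32). Higher and lower here give the sign of the Log2FC alone. The separation of both TBI rats from both controls was thus a condition of this ranking and not a result. That alone was common: 1579 genes (18.5% of those tested) lay above and 968 (11.4%) below both controls in both TBI rats.

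By list, 4 groups of interneuron genes had medians near that of all genes. Of the 9 genes of GABA synthesis, packaging and uptake 5 were higher and 4 lower, with a median Log2FC of 0.01, beside -0.02 for all 8522 genes. Without cluster 7 these were 5 and 3, with a median of 0.11. The 16 fast-spiking channels were split 8 to 8 (median 0.01, and -0.02 without cluster 7). The 16 parvalbumin-type identity genes were split 5 to 11 (median -0.09) and the 12 neuregulin and ErbB genes 7 to 5 (median 0.03). Kcnc1 had a Log2FC of 0.10 ± 0.23, Kcnc2 of -0.13 ± 0.26 and Erbb4 of -0.15 ± 0.31. Slc32a1 had a Log2FC of -0.22 ± 0.47, which turned to 0.32 without the naive rat, and that of Erbb4 turned to 0.24 without TBI replicate 1. Pvalb was too sparse to be tested. The markers of the neighbouring types stood further off for the Npas1, Adarb2 and Htr3a type, with 5 of 8 genes higher (median 0.31, and 0.26 without cluster 7), than for the Sst type. Of the Sst type 3 of 6 were higher (median 0.06), and 2 of 5 without cluster 7, where the median turned to -0.09.

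Of the receptor and release genes, the GABA-A subunits were mostly lower by value. Of the 11 subunits 2 were higher and 9 lower (median -0.15), and 0 and 11 without cluster 7 (median -0.24). Of the 23 glutamate receptors 9 were higher and 14 lower (median -0.07), and 10 and 12 without cluster 7 (median -0.02). Of the 24 transmitter release genes 13 were higher and 11 lower (median 0.01). The 9 perineuronal net genes had a median of -0.03, which turned to 0.01 without cluster 7. Of 7 activity and stress genes 5 were higher, with a median of 0.22 (0.06 over 5 genes without cluster 7), and the most changed by value, the activity-regulated nuclear receptor Nr4a3, was at 38.3 and 114 CPM against 37.0 and 19.3 CPM (Log2FC 1.43 ± 0.53). For Nr4a3 the TBI rats lay above the controls, but TBI replicate 1 and the sham rat were close to equal. The 8 astrocyte markers had the list median furthest from 0. Of these 8 of 8 were lower (median -0.84), and 2 of 6 without cluster 7 (median 0.25), the cluster that held 25.3% of the naive rat's UMIs.

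The injury effect was also compared between the members and the other Gad-gated nuclei of the same rats, to ask whether the members responded differently. Of 9105 genes 0 were called (0% of those tested) by edgeR, with 183 at an unadjusted p below 0.05, and DESeq2 called 0, with 2 below 0.05. Genes were ranked here only where the CPM difference between members and other Gad-gated nuclei separated both TBI rats from both controls. Among these the smallest p belonged to Stmn1, a microtubule regulator. It was at 34.9 CPM in the members of TBI replicate 1 and at 0 in the members of the other 3 rats. In the other Gad-gated nuclei it was at 24.6 CPM in TBI replicate 1, 0 in TBI replicate 2, 2.75 CPM in the sham rat and 35.3 CPM in the naive rat, so that the difference rested on TBI replicate 1 and the naive rat. The adhesion molecule Fat3 was at 258 and 437 CPM in the members after TBI and at 322 and 269 CPM in the controls, against 228 and 335 CPM after TBI and 536 and 352 CPM in the controls in the other Gad-gated nuclei (difference of Log2FC 0.83 ± 0.23).

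The same genes could be followed in bulk tissue, where all cells of the dentate gyrus contribute and fewer cells of a type and less RNA per cell cannot be told apart. The values were deposited log2 CPM, tested with limma. The study itself tested the counts of these libraries with DESeq2 and reported differentially expressed genes, nearly all of them higher after TBI. No test on the bulk counts was run here, so the absence of calls below holds for limma on log2 CPM. Of 14166 genes 0 were called (0% of those tested), with a smallest FDR of 0.149 and 1340 genes below an unadjusted p of 0.05, and all 3 TBI libraries lay above all 3 sham libraries for 1656 genes (11.7%) and below for 431 (3.04%). By the deposited dates of injury, 2 sham libraries (replicates 1 and 2) and 1 TBI library (replicate 1) came from an earlier period of the year. The other libraries, 1 sham and 2 TBI, came from a later one. With this period as a covariate limma also called 0 genes, with a smallest FDR of 0.428 and 1040 genes below an unadjusted p of 0.05. Pvalb was at 5.5, 5.15 and 5.68 log2 CPM in the sham libraries and 5.13, 4.46 and 5.29 in the TBI libraries. The groups overlapped, at 5.44 ± 0.273 against 4.96 ± 0.443 (SD, n = 3), and the Log2FC of -0.48 ± 0.24 had a limma FDR of 0.596. Within the periods the TBI mean of Pvalb differed from the sham mean by -0.19 (earlier) and -0.81 (later). Slc32a1 had a Log2FC of -0.28 ± 0.15 (limma FDR 0.644), Gad1 of -0.19 ± 0.11, Gad2 of -0.21 ± 0.16 and Erbb4 of -0.39 ± 0.28. For Gad1 the difference was 0.0040 in the earlier period and -0.42 in the later.

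In bulk, 18 of 19 fast-spiking channel genes were lower in TBI and 1 higher, with a median Log2FC of -0.27 where that of all genes was 0.04, and 0 were called. Kcnc1 was at 6.39, 6.51 and 6.71 log2 CPM in the sham libraries and 6.31, 6.12 and 6.08 in the TBI libraries. The groups did not overlap for Kcnc1, and its Log2FC of -0.37 ± 0.12 had a limma FDR of 0.319. Kcnc2 was at 5.44, 5.97 and 6.04 against 5.35, 5.58 and 5.32 log2 CPM (-0.40 ± 0.17). Within the periods 17 of the 19 were lower in the earlier (median -0.12) and 18 in the later (median -0.45). In the members the same list was split evenly, as given above. Whether the bulk and the nuclear values differ was not tested, since they come from different rats and different RNA.

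Markers of non-neuronal cells differed by value beside those in the bulk libraries, with 0 called. The astrocyte markers were higher in 8 of 8 (median 0.47), 7 of them with all TBI libraries above all sham libraries, and the microglia markers in 9 of 9 (median 1.19), all 9 apart. The endothelial and pericyte markers were higher in 9 of 9 (median 0.47), whereas the oligodendrocyte markers were lower in 9 of 9 (median -0.52; medians of -0.92 in the earlier and -0.05 in the later period). Gfap was at 10.2, 10.3 and 9.80 log2 CPM in the sham libraries and 11.5, 12.4 and 11.3 in the TBI libraries (Log2FC 1.63 ± 0.29, limma FDR 0.149). The part of such genes in the lower interneuron values was not tested. The transmitter release list, which all neurons use, was lower for 21 of 24 genes (median -0.15), and the GABA list for 9 of 12 (median -0.12). In the earlier period these were 15 of 24 and 6 of 12, and in the later 21 of 24 and 8 of 12.

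**Figure D5:**
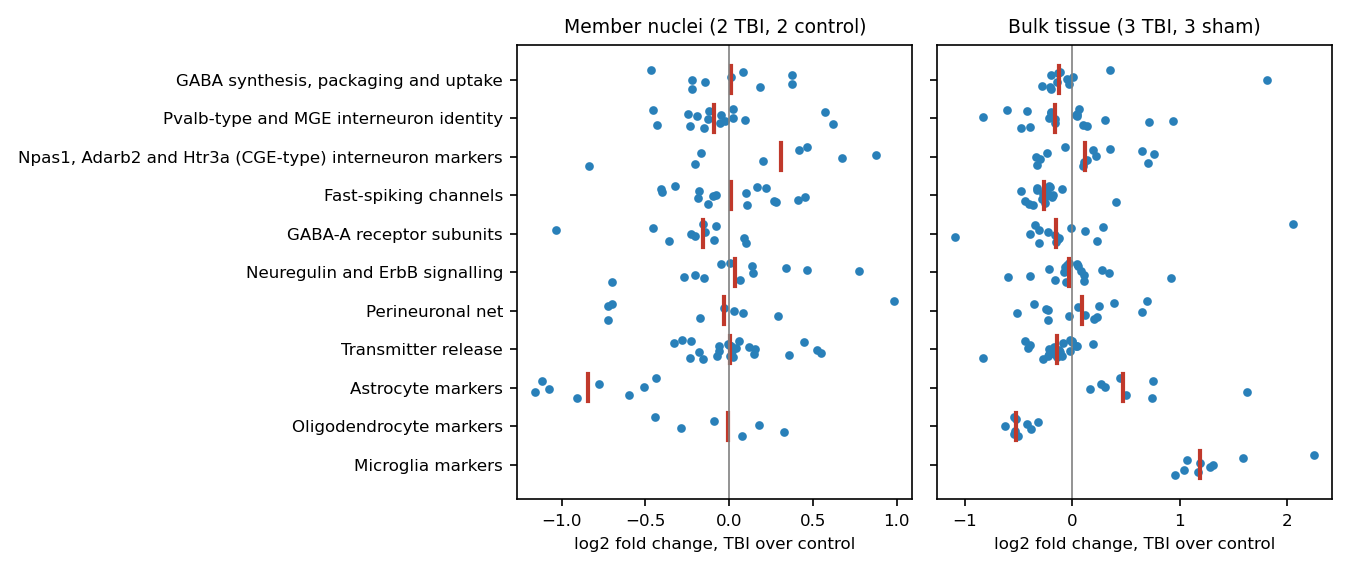
Log2FC of TBI against control for each gene of the lists (points) with the list median (red), in the members (edgeR) and in bulk tissue (limma). In the members the GABA synthesis, fast-spiking and parvalbumin-type medians sit between -0.09 and 0.01 and that of the Npas1, Adarb2 and Htr3a type markers at 0.31, the fast-spiking list is at -0.27 in bulk, and the astrocyte list is at -0.84 in the members and 0.47 in bulk.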

How the data were processed

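Nuclei of the dentate gyrus were counted on the 10x platform, and the authors made UMI counts per gene and nucleus with Cell Ranger on the Rnor_6.0 genome, introns included. Seurat and DESeq2 are also named in the submitters' processing notes. For the bulk libraries the authors made estimated counts with kallisto (25121900 to 44649400 a library, used for depth) and deposited log2 CPM values after removing unannotated, low-count and low-variance features. Symbols for 13778 of the 14166 bulk genes came from a RefSeq table (GRCr8).

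The nuclei were in deposited count matrices with 55863 barcodes, of which 462 were removed by the filters (at least 500 UMIs, at most 5% mitochondrial UMIs). The study's further filters were tried as an alternative. Each library was 1 rat, groups came from the labels, and all 4 nucleus libraries bore the same batch label. UMIs of the members were summed per rat, and filterByExpr, TMM scaling and the quasi-likelihood test of edgeR 4.0.16 (R 4.3.3) were applied across all genes except the 6 gate genes. DESeq2 1.42.0 was an alternative. Bulk values were tested with limma 3.58.1 and a trend. Adjusted p-values are Benjamini-Hochberg, with 0.05 as threshold. Members were clustered with scanpy 1.11.5 (2000 variable genes, 20 components, 15 neighbours, Leiden resolution 0.6), with cluster-leading genes ranked on CPM plus 10. Shares carry exact binomial (Clopper-Pearson) intervals, and the limit for a count of 0 is 3 counts. No doublet caller was run. Members with 2 or more UMIs of Slc17a7 and Slc17a6 (35, 10, 10 and 29 in TBI replicates 1 and 2, sham and naive) were left out as an alternative. Leaving out cluster 7, or nuclei with 10 or more UMIs of the 9 astrocyte markers from members and gated nuclei alike, was added after seeing the data.

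Genes were drawn for naming by rank: the 10 smallest p in each direction with a call, and the 5 smallest where there was none. Against the gated nuclei only genes that moved the same way in every rat were ranked. For the TBI effects only genes with both TBI rats on the same side of both controls were ranked. The called members of 17 gene lists (262 genes, 10 of them absent from the matrices) were added. Not all of the ranked genes are reported here. A few other genes are given because the gate or the lists concern them. A few list genes are counted within their lists but not reported here by name. The members, lists and tests were chosen with earlier results of these data known. With 1 library a rat, p-values measure the spread between these rats. The edgeR fits and the limma fit were tested on simulated data. For TBI against control in the members, 26 of 105 genes changed by a Log2FC of 1 were recovered and 63 of 95 changed by 2, with 15 false calls. For the difference of the TBI effect these were 9 of 97 and 64 of 103, with 2 false calls.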

Additional observations from a re-analysis of the deposited data

How the results depend on the processing

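With 2 rats a group and few Sst-gated nuclei, the counts of called genes moved with the settings while the directions of named genes mostly did not. The genes ranked against the gated nuclei had been drawn because they moved the same way in every rat. Their stable direction when a rat was left out therefore followed in part from that choice. The share of members (0.298 percentage points higher after TBI) ranged from -0.0329 (without the sham rat) to 0.629 (without the naive rat) when a rat was left out, and was -0.0658 with at least 6 Gad UMIs, 0.733 with at least 3, 0.572 with a minimum of 1000 UMIs and 0.972 after thinning to 1000 UMIs. The share of members with a Pvalb UMI (-1.63) ranged from -4.02 (without sham) to 0.760 (without naive), and was 0.808 after thinning to 1000 UMIs. For TBI against control, calls were 23 (18 higher, 5 lower) without a filter on low counts and ranged from 0 to 54 when a rat was left out: 54 without TBI replicate 1, 27 without TBI replicate 2, each leaving 1 TBI rat assumed to vary like the controls. Single Log2FC values reversed for Slc32a1 (0.0806 with 0 UMIs of Sst, Npas1, Adarb2 and Htr3a, and from -0.545 without the sham rat to 0.320 without the naive rat) and Erbb4 (from -0.706 without TBI replicate 2 to 0.243 without TBI replicate 1).

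Calls against the Sst-gated nuclei (438) were 240 with DESeq2 and 241 without the block by rat, and ranged from 223 (without the naive rat) to 611 when a rat was left out, with 252 without TBI replicate 2. Calls against the Npas1/Adarb2/Htr3a-gated nuclei (412) were 188 with DESeq2 and 81 without the block by rat, and ranged from 184 (without the naive rat) to 530, with 271 without TBI replicate 1. Leaving out the members of cluster 7 alone gave 419 and 509 calls, of which 343 and 362 were shared with the full set in the same direction; Apoe (-0.781) and Slc1a2 (-0.394) reversed against the Sst-gated nuclei. That removal is one-sided, since the gated nuclei kept their astrocyte RNA, and leaving out astrocyte-rich nuclei on both sides gave 573 and 601 calls; both alternatives were chosen after seeing the data. Among alternatives for the 64 and 68 genes drawn for naming in these comparisons, 533 and 563 kept their side of the threshold and 95 and 115 lost the call with the same direction. The difference of the TBI effect gave 1 call without a filter on low counts and 0 to 9 when a rat was left out (9 without TBI replicate 1). At a resolution of 1 the members fell into 11 clusters. In bulk, the replicate number as a replicate block gave 125 calls (124 higher, 1 lower), with correlations of same-numbered libraries of 0.352, 0.173 and -0.0297, so the numbers were not shown to pair; leaving out a library gave 0 to 1 (1 without TBI replicate 1 or TBI replicate 3). The nucleus groups share only replicate number 1 and allowed no paired analysis. Causes of these shifts were not tested.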
